A study of Mus musculus and blank sample with 91 samples.

Results

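The gut bacteria of EAE mice were compared with those of naïve mice at 29 dpi (days post-immunization), the chronic phase of experimental autoimmune encephalomyelitis (EAE), a mouse model of multiple sclerosis. All fecal samples whose labels give that day and the EAE (MOG) or naïve (control) group were used, which makes 12 of the 91 samples of the series, 6 in each group. The study followed naïve, CFA and EAE mice with repeated fecal sampling, and it sequenced the V3 and V4 regions of the bacterial 16S rRNA gene. Both groups were C57BL/6 mice by their labels and, by the study's methods, females bought as C57BL/6J at 8 weeks of age. EAE mice received 50 µg of the myelin peptide MOG35–55 in complete Freund's adjuvant (CFA) under the skin, and 250 ng of pertussis toxin into the peritoneum on days 0 and 2. Naïve mice received none of these, so the peptide, the adjuvant, the toxin and the disease cannot be told apart in this comparison. Mice were housed at 2 to 3 per cage and treatment was assigned to whole cages. The sources used here do not give each mouse's cage, so cage and treatment cannot be told apart either, and the permutation tests treat each mouse as a replicate. EdgeR's model treats each sample as a replicate, although naïve, CFA and EAE mice were each sampled repeatedly. With the compared groups alone in the model, edgeR called 3 families in place of 6 and 4 genera in place of 6. Clinical scores, which rise with paralysis, were 2.25 to 3.75 in the 6 EAE mice and 0 in the naïve mice. By the labels, EAE mouse 591 had a score of 0 at its earlier samplings and of 3 at 29 dpi.

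The mouse intestine is inhabited mainly by Firmicutes, among them lactic acid bacteria and Clostridiales, and by Bacteroidales. Lactobacillus ferments sugars to lactic acid, Clostridiales ferment fibre and other substrates to short-chain fatty acids, and Akkermansia grows on the mucus that covers the gut wall. Mice kept in the same cage exchange fecal bacteria.

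Read counts per amplicon sequence variant (ASV) were summed by the deposited family and genus names and given as relative abundance, the percent of a sample's counts. Such percents add up to a fixed total, so a fall of an abundant taxon raises the percents of others even where their number of cells is the same, and fewer cells cannot be told apart from more cells of other taxa. The 12 samples held 62526 to 102437 counts, so that 3 counts, used as the limit of what could be detected in a mouse, were 0.00293% to 0.00480% of a sample. Counting error is all that this floor of 3 counts covers, since amplified reads are not independent molecules. Counts were found for 22 families, 63 genera and 760 ASVs. Differences in counts were tested by edgeR (quasi-likelihood F-test) in a model of all 88 samples with counts, and percents with two-sided exact permutation tests of 6 against 6 mice, whose smallest possible p is 0.00216. Adjusted p-values are by the Benjamini-Hochberg method over all taxa of a rank, with a threshold of 0.05.

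EAE mice held less Lactobacillaceae and Verrucomicrobiaceae than naïve mice, and more Erysipelotrichaceae, Clostridiaceae, Ruminococcaceae, Muribaculaceae and Peptostreptococcaceae, by at least 1 of the tests. With edgeR, 6 of 23 families tested (26.1%) passed. Of these, 4 were higher in EAE mice (17.4%), namely Peptostreptococcaceae, Muribaculaceae, Ruminococcaceae and Christensenellaceae. The other 2, Lactobacillaceae and Coriobacteriaceae, were lower (8.70%). With exact permutation tests of percents, 4 of 22 families (18.2%) passed, of which Erysipelotrichaceae and Clostridiaceae were higher (9.09%) and Lactobacillaceae and Verrucomicrobiaceae lower (9.09%). Only Lactobacillaceae passed both tests, and 9 families passed at least 1 of them. At an unadjusted p under 0.05 there were 8 families with edgeR and 7 with permutation tests. DESeq2 called 8 of 21 families (38.1%), 3 higher (14.3%) and 5 lower (23.8%), so that lower calls outnumbered higher ones, the reverse of edgeR. The permutation calls were sensitive to single mice: without EAE mouse 588, 589, 594 or 595, 0 families passed, with 7 or 8 at an unadjusted p under 0.05. Without naïve mouse 560 or 561, 1 family passed, and without EAE mouse 591 or naïve mouse 562, 7 passed.

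**Figure D1:**
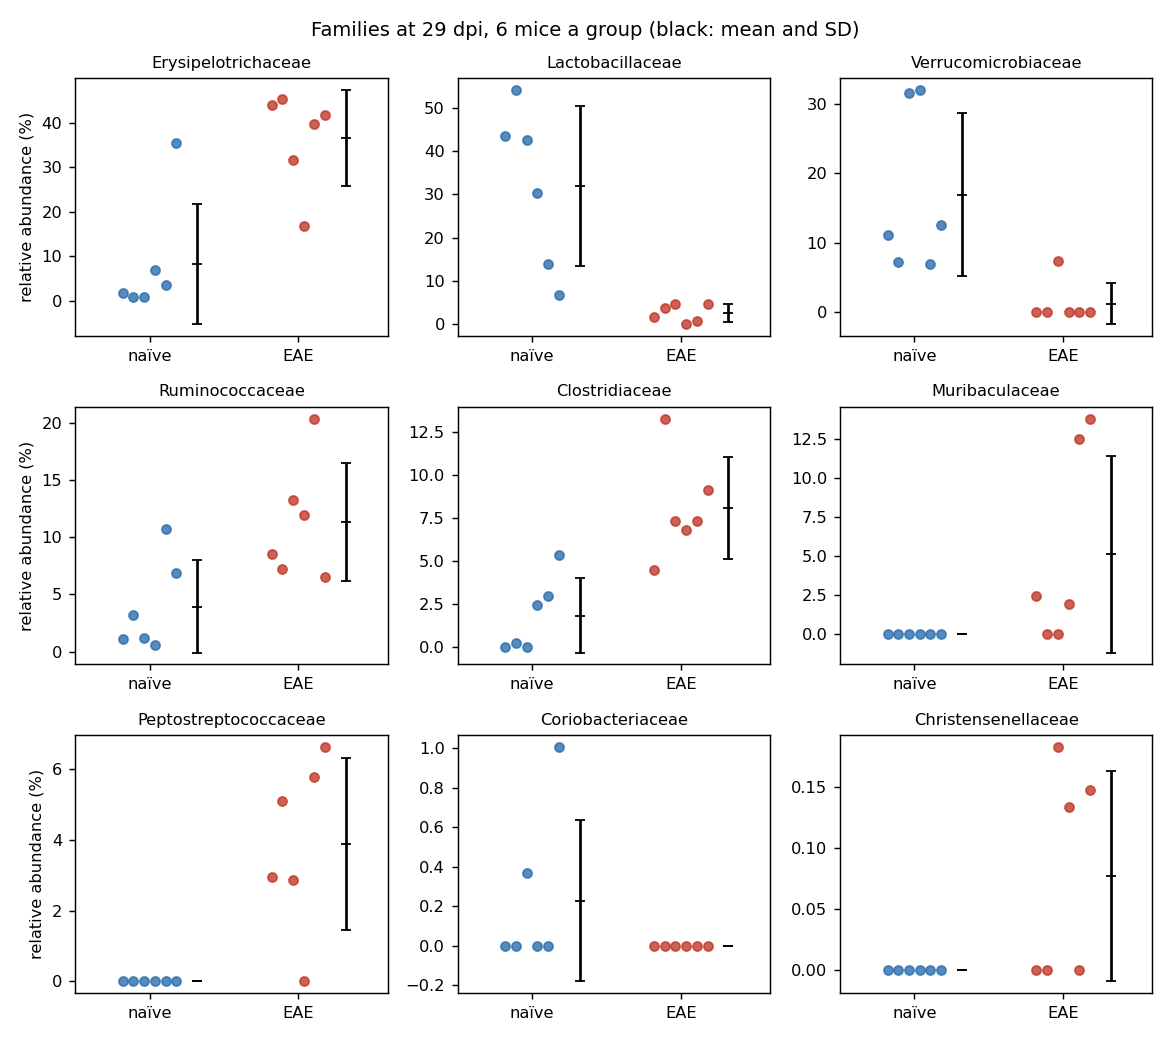
Relative abundance (%, vertical axis of each panel) of the 9 families that passed at least 1 test, in 6 naïve (blue) and 6 EAE (red) mice at 29 dpi. Each point is a mouse, and the black mark and bar give the mean and SD. Lactobacillaceae is the panel in which the groups do not overlap, with EAE mice at 0 to 4.78% and naïve mice at 6.70 to 54.1%.

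Lactobacillaceae had their highest, median and lowest relative abundance in naïve mice at 54.1%, 36.5% and 6.70%, and in EAE mice at 4.78%, 2.71% and 0%. Every EAE mouse lay below every naïve mouse. EAE mouse 593, which had the highest clinical score of the group, 3.75, had no counts of the family, and naïve mice 563 and 562 were the lowest of their group at 6.70% and 13.8%. The mean was 2.61% ± 2.07 (SD, n = 6) in EAE and 31.8% ± 18.5 (SD, n = 6) in naïve mice, 12.2-fold lower (exact permutation test, p = 0.00216, the smallest possible, adjusted p = 0.0357). Its log2 fold change was -4.46 (SE 0.93, edgeR adjusted p = 0.000182), and the edgeR call was kept whichever mouse was left out (edgeR adjusted p = 8.84e-05 to 0.00116). The permutation call was lost in 5 of these 12 runs (exact permutation tests, adjusted p up to 0.0667). Lactobacillaceae were the 1 family of 22 (4.55%) without overlap between the groups.

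The genus Lactobacillus held all counts of Lactobacillaceae, and all of its counts in the 12 samples carried the species name Lactobacillus johnsonii, a common inhabitant of the rodent gut. At the genus rank the adjusted p was 0.00295 with edgeR and 0.0455 in the exact permutation test. Fitted on the 12 samples alone, edgeR's adjusted p for the genus was 0.194, with the same direction. The permutation call for the genus was lost when any 1 of the 12 mice was left out (exact permutation tests, adjusted p = 0.0639 to 0.115, unadjusted p at most 0.0130). Other families that make lactic acid, Enterococcaceae, Streptococcaceae and Bifidobacteriaceae, had no counts in these 12 samples.

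Verrucomicrobiaceae consisted of Akkermansia, the mucus-degrading genus. It had counts in 6 of 6 naïve mice, at 6.90%, 11.8% and 31.9% as lowest, median and highest, and in 1 of 6 EAE mice, mouse 591, at 7.33%. That mouse exceeded naïve mice 559 and 562, at 7.25% and 6.90%, so the groups overlapped. The means were 1.22% ± 2.99 in EAE mice, against 16.9% ± 11.7 in naïve mice (SD, n = 6), 13.8-fold lower (exact permutation test, p = 0.00649, adjusted p = 0.0357 for the family and 0.0682 for the genus). The log2 fold change was -4.89 (SE 2.25, edgeR adjusted p = 0.0984). DESeq2 called the family lower (log2 fold change -5.80, DESeq2 adjusted p = 0.00537) but not the genus (DESeq2 adjusted p = 0.0841). Leaving out mouse 591 removes all EAE counts of Akkermansia, and edgeR's adjusted p for the family was then 6.67e-05, which follows from that choice of mouse. Over all runs with 1 mouse left out, edgeR's adjusted p for the family reached 0.158. The family's permutation call was lost in 7 of these 12 runs (exact permutation tests, adjusted p up to 0.0667). In the 5 CFA mice of that day, which by their labels received the adjuvant alone, Akkermansia had no counts, and it had none in CFA mice at -2 dpi.

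Erysipelotrichaceae had the highest mean of all families in EAE mice, and nearly all of their counts belonged to Turicibacter, a genus of the small intestine. Lowest, median and highest Erysipelotrichaceae were 16.8%, 40.7% and 45.3% in EAE and 0.899%, 2.65% and 35.4% in naïve mice. A single naïve mouse, 563, lay within the range of EAE mice, and the other 5 were at 6.91% or less. The means were 36.5% ± 10.8 and 8.23% ± 13.5 (SD, n = 6), 4.44-fold higher in EAE mice (exact permutation test, p = 0.00649, adjusted p = 0.0357), whereas edgeR's log2 fold change was 1.94 (SE 1.28, adjusted p = 0.277). The family's permutation call was lost in 8 of 12 runs with 1 mouse left out (exact permutation tests, adjusted p up to 0.0667). Turicibacter itself had counts in 6 of 6 EAE and 3 of 6 naïve mice, with means of 36.5% ± 10.8 and 7.58% ± 13.8 (SD, n = 6, exact permutation test, p = 0.00649, adjusted p = 0.0682). In CFA mice at 29 dpi Turicibacter took 33.6% ± 11.9 (SD, n = 5). The naïve mice without Turicibacter, 558, 559 and 560, had their Erysipelotrichaceae counts, at most 1.83%, in other genera.

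Families of Clostridiales, anaerobes that form spores in many species, were taken as a list of 11 that was chosen with earlier results of these data known, and 10 of them had counts in these samples. The mean percent was higher in EAE mice for 9 of the 10, against 13 of all 22 families. EdgeR called 3 of the 10 as higher and 0 as lower, against 4 of all 23 families tested as higher (17.4%). The median log2 fold change of the list was 0.85, against 0.42 over all 23 families tested. Their largest family, Lachnospiraceae, did not follow this direction with edgeR (log2 fold change -0.49, SE 0.63, adjusted p = 0.587) and had means of 22.4% ± 16.7 in EAE mice, against 22.1% ± 17.8 in naïve mice (SD, n = 6, exact permutation test, p = 0.972). DESeq2 called Lachnospiraceae lower in EAE mice (log2 fold change -1.60, adjusted p = 0.0435). Mouse 593 in the EAE group, at 50.9%, and mouse 562 in the naïve group, at 57.0%, had the highest Lachnospiraceae.

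Clostridiaceae of EAE mice were almost entirely Clostridium_sensu_stricto_1, the group around the type species of Clostridium. This genus made up 93.5% to 100% of the family in EAE mice and 0% to 100% in the 4 naïve mice with counts of it. The family had 4.50%, 7.32% and 13.3% as lowest, median and highest in EAE mice, and 0%, 1.38% and 5.34% in naïve mice. The groups overlapped by naïve mouse 563, at 5.34%, and EAE mouse 588, at 4.50%. The mean was 4.36-fold higher in EAE mice, 8.05% ± 2.95 against 1.84% ± 2.15 (SD, n = 6, exact permutation test, p = 0.00433, adjusted p = 0.0357), and edgeR's log2 fold change was 1.72 (SE 1.79, adjusted p = 0.535). With 1 mouse left out, the family's permutation call was lost in 6 of 12 runs (exact permutation tests, adjusted p up to 0.0667). Clostridium_sensu_stricto_1 had counts in 6 of 6 EAE and 3 of 6 naïve mice, with means of 7.98% ± 2.99 and 1.73% ± 2.09 (SD, n = 6), and did not pass either test (exact permutation test, adjusted p = 0.0682).

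Ruminococcaceae, a family that includes many degraders of plant fibre, were 6.57%, 10.2% and 20.4% as lowest, median and highest in EAE mice and 0.621%, 2.21% and 10.7% in naïve mice. Naïve mice 562, at 10.7%, and 563, at 6.86%, lay within the range of EAE mice. The mean was 11.3% ± 5.18 against 3.94% ± 4.04 (SD, n = 6), 2.87-fold higher, with a log2 fold change of 1.36 (SE 0.47, edgeR adjusted p = 0.0222). The exact permutation test gave p = 0.0195 (adjusted p = 0.0612). The edgeR call was lost without naïve mouse 558, 560 or 561 or EAE mouse 594 (edgeR adjusted p = 0.0627 to 0.140). It was also lost with only the groups compared in the model (edgeR adjusted p = 0.243) and without Lactobacillaceae (0.0523), and DESeq2 gave a log2 fold change of 0.36 (adjusted p = 0.647).

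Within Ruminococcaceae, the genus named Ruminococcaceae_UCG-014 was 2.42%, 4.08% and 11.6% as lowest, median and highest in EAE and 0%, 0.544% and 2.16% in naïve mice. All 6 EAE mice were above all 6 naïve mice. The means were 5.01% ± 3.39 and 0.787% ± 0.909 (SD, n = 6), 6.36-fold higher in EAE mice (exact permutation test, p = 0.00216, adjusted p = 0.0455, log2 fold change 2.67, SE 1.49, edgeR adjusted p = 0.259). DESeq2 called this genus higher (log2 fold change 2.99, DESeq2 adjusted p = 0.0360). Candidatus_Soleaferrea/Massilioclostridium was at 0.371%, 0.494% and 1.36% in EAE and 0%, 0.0932% and 0.191% in naïve mice, again without overlap. Its mean was 7.33-fold higher in EAE mice, 0.679% ± 0.401 against 0.0928% ± 0.0830 (SD, n = 6, exact permutation test, p = 0.00216, adjusted p = 0.0455, edgeR adjusted p = 0.675). Both permutation calls were lost when any 1 of 10 mice was left out, and kept without EAE mouse 593 or 595 (exact permutation tests, adjusted p up to 0.109, unadjusted p at most 0.00866).

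Ruminococcus, which holds cellulose degraders, had counts in 6 of 6 EAE mice, from 0.209% to 2.45% with a median of 1.71%, and in naïve mice 562 and 563 alone, at 0.557% and 0.925%. The means were 1.58% ± 0.827 and 0.247% ± 0.400 (SD, n = 6, exact permutation test, p = 0.00866, adjusted p = 0.0779, log2 fold change 2.66, edgeR adjusted p = 0.367). Ruminiclostridium, a genus of cellulose-degrading clostridia, had counts in EAE mice 588, 591 and 594, at 0.199%, 2.26% and 3.03%, and in 0 of 6 naïve mice. It passed edgeR (adjusted p = 0.0193) at an at least 255-fold higher mean than 3 counts per naïve mouse, but not the permutation test (exact, p = 0.182). Ruminococcus-DTU089 had counts in 4 of 6 EAE mice and 0 of 6 naïve mice, at a mean of 0.174% ± 0.158 in EAE mice (SD, n = 6, edgeR adjusted p = 0.0697, exact permutation test, p = 0.0606). Lachnospira had means of 0.829% ± 0.858 and 0.185% ± 0.209 (SD, n = 6, exact permutation test, p = 0.0844, edgeR adjusted p = 0.904). Of the 5 genera listed as plant fibre degraders, 4 had a higher mean in EAE mice, against 34 of all 63 genera, and the exception was Ruminiclostridium_C-Clostridium IV. EdgeR called 1 of the 5 as higher, against 4.62% of all genera tested, and the permutation tests called 0. The median log2 fold change of these 5 was 2.66, against 0 over all 65 genera tested.

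Romboutsia, a small-intestinal genus, held all counts of Peptostreptococcaceae. It was found in EAE mice 588, 589, 591, 594 and 595 at 2.96%, 5.10%, 2.88%, 5.79% and 6.63%. Neither EAE mouse 593 nor any naïve mouse had a count. The mean of 3.89% ± 2.43 (SD, n = 6) was at least 1086-fold higher than the floor of 3 counts per naïve mouse. The family and the genus passed edgeR (adjusted p = 0.00237 and 0.00295), also whichever mouse was left out (edgeR adjusted p up to 0.0104), and missed the threshold in the exact permutation test (p = 0.0152, adjusted p = 0.0556 and 0.106). The CFA mice of that day had no Romboutsia counts in 5 of 5 samples. At -2 dpi, before immunization, 6 of 6 CFA mice had held Romboutsia, at 2.85% ± 1.70 (SD, n = 6), and no later CFA sample analysed here had any.

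Christensenellaceae had counts in 3 of 6 EAE mice, at 0.134% to 0.183%, and in 0 naïve mice, at least 21.6-fold higher in mean (edgeR adjusted p = 0.0447, lost when any 1 of 9 mice was left out, exact permutation test, p = 0.182). The remaining 5 Clostridiales families passed neither test: Oscillospiraceae, Peptococcaceae, Eubacteriaceae and Mogibacteriaceae/Anaerovoracaceae had higher means in EAE mice, and Clostridiales_vadinBB60 a lower one. Oscillospiraceae, at 2.14% ± 1.51 against 1.10% ± 1.01 (SD, n = 6, exact permutation test, p = 0.186), were the largest of these.

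Bacteroidales, the order that ferments complex plant and host sugars, had 3 families in these samples, of which edgeR called Muribaculaceae alone and the permutation tests called 0. Prevotellaceae (edgeR adjusted p = 0.277, exact permutation test, adjusted p = 0.319) and Porphyromonadaceae (edgeR adjusted p = 0.297, exact permutation test, adjusted p = 0.0556) passed neither, and DESeq2 called Prevotellaceae lower (log2 fold change -3.94, adjusted p = 0.00537). Muribaculaceae, all of them Muribaculum, were at 2.43%, 1.95%, 12.5% and 13.8% in EAE mice 588, 593, 594 and 595 and at 0 in the other 2 and in all naïve mice. The mean was 5.11% ± 6.32 (SD, n = 6), at least 1427-fold above the floor of the naïve mice (edgeR adjusted p = 0.0222 for the family and 0.0193 for the genus, exact permutation test, p = 0.0606). Prevotella, which held all counts of Prevotellaceae, had means of 3.22% ± 3.81 in EAE mice, against 9.71% ± 8.77 in naïve mice (SD, n = 6, exact permutation test, p = 0.145, edgeR adjusted p = 0.367). Its values ran from 0% to 8.92% in EAE mice and from 0% to 23.4% in naïve mice, and the groups overlapped. Barnesiella, of Porphyromonadaceae, had counts in 2 of 6 EAE and 5 of 6 naïve mice, with means of 0.241% ± 0.588 and 2.69% ± 1.96 (SD, n = 6, exact permutation test, p = 0.0152, adjusted p = 0.106). It was named after its values were seen, because of the sequence it shares with Prevotella.

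The names of Bacteroidales genera did not separate their sequences. After removal of the primers, all Barnesiella counts of naïve mice, 13276 counts in 5 ASVs, carried the same sequence as 38623 naïve counts and 17318 EAE counts named Prevotella. Conversely, 1362 counts named Barnesiella in EAE mouse 591 carried the sequence of 9627 counts named Muribaculum in other EAE mice, so that this sequence was present in 5 of 6 EAE mice and 0 of 6 naïve mice. Across the series, 31 of 507 distinct sequences carried more than 1 genus name and 8 more than 1 family name. They made up 14.6% and 7.97% of the counts of the 12 samples. Each sequence was therefore also given a single genus name, an alternative chosen after seeing the data. Prevotella was then -9.18 percentage points lower in EAE mice (exact permutation test, p = 0.0455, adjusted p = 0.252), Muribaculum 5.35 points higher (p = 0.0152, adjusted p = 0.103), and Barnesiella differed by 0.000600 points (p = 1). The permutation tests again called 3 genera, and edgeR called 8 genera in place of 6.

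Of the genera, 6 of 65 tested (9.23%) passed edgeR, 3 in each direction (4.62%). Higher were Romboutsia, Muribaculum and Ruminiclostridium. Lower were Lactobacillus, Marvinbryantia and Adlercreutzia. Exact permutation tests called 3 of 63 genera (4.76%), Lactobacillus lower (1.59%) and Ruminococcaceae_UCG-014 and Candidatus_Soleaferrea/Massilioclostridium higher (3.17%). These were also the 3 genera without overlap between the groups (4.76%). Lactobacillus was the 1 genus that passed both tests. At an unadjusted p under 0.05 there were 17 genera with edgeR and 9 with permutation tests. DESeq2 called 17 of 61 genera (27.9%), 9 higher (14.8%) and 8 lower (13.1%), and edgeR with total counts as library sizes called 3 higher and 1 lower.

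Marvinbryantia, an acetate-forming genus of Lachnospiraceae, had counts in naïve mice 558, 560, 561 and 563, at 0.407% to 1.25%, and in 0 EAE mice. Its mean was at least 122-fold lower in EAE mice than in naïve mice when EAE mice are set to 3 counts each (edgeR adjusted p = 0.0462, lost when any 1 of 10 mice was left out, exact permutation test, p = 0.0606). Adlercreutzia, a genus known for converting plant isoflavones and the whole of Coriobacteriaceae here, had counts in naïve mice 560 and 563 alone, at 0.370% and 1.00%, and was at least 63.4-fold lower in EAE mice (edgeR adjusted p = 0.0453 for the genus and 0.0222 for the family, exact permutation test, p = 0.455). The genus call was lost when any 1 of 8 mice was left out. Already at -2 dpi the family had counts in 2 of 6 naïve mice and 0 of 6 EAE mice. Its log2 fold change was then -10.2 (SE 3.64, edgeR adjusted p = 0.156), so a difference in the same direction, though not called, was seen before immunization.

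The other genera that were to be described whether called or not passed neither test. Coprococcus, a butyrate producer, had means of 2.14% ± 1.73 in EAE mice, against 0.746% ± 0.990 in naïve mice (SD, n = 6, exact permutation test, p = 0.121). The genus named Coprococcus/Eubacterium_F had 0.367% ± 0.413 and 0.624% ± 1.01 (exact permutation test, n = 6, p = 0.652). Its naïve counts came from mice 562 and 563 alone. Mycoplasma, which lacks a cell wall, had counts in 2 of 6 EAE mice and 1 of 6 naïve mice, Tyzzerella-Clostridium XlVb in 1 and 3, and Anaerotignum-Clostridium XlVb in 1 and 4. The EAE counts of Tyzzerella-Clostridium XlVb and Anaerotignum-Clostridium XlVb were all from mouse 593. Dubosiella had no counts in these samples. Of 11 butyrate-producing genera with counts, edgeR and the permutation tests called 0, against 9.23% and 4.76% of all genera, with 6 higher and 5 lower in mean in EAE mice and a median log2 fold change of -0.24. No candidate name of segmented filamentous bacteria was present, and of the wall-less Mollicutes families 0 of 3 were called, against 26.1% of all families with edgeR and 18.2% with permutation tests.

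**Figure D2:**
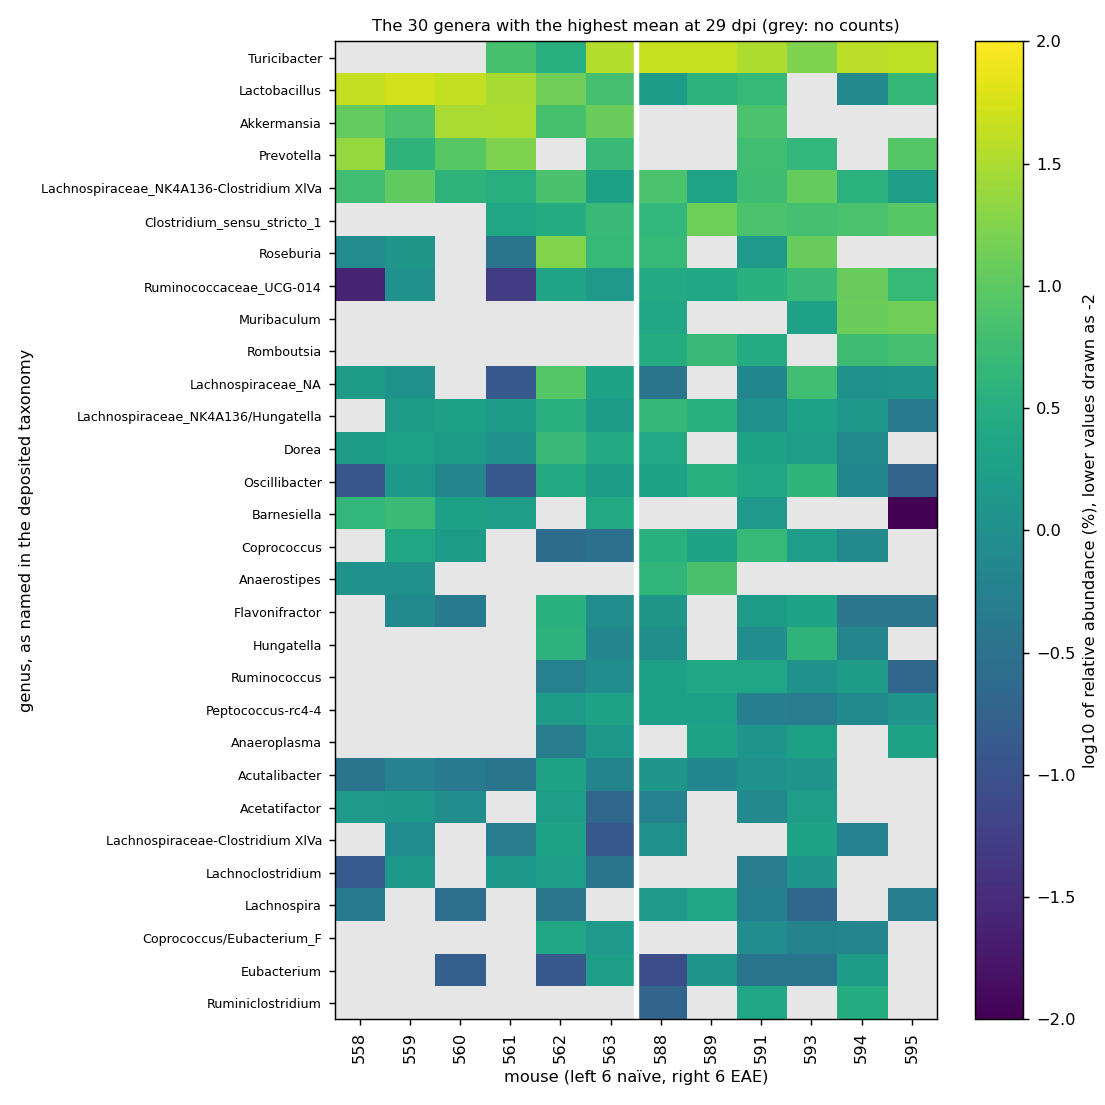
Relative abundance (%, colour on a log10 scale, grey where there were no counts) of the 30 genera with the highest mean over the 12 samples, 1 row per genus and 1 column per mouse, with the 6 naïve mice on the left and the 6 EAE mice on the right. Naïve mice 562 and 563 have counts in rows, such as Ruminococcus and Turicibacter, that are grey in naïve mice 558, 559 and 560.

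Genus shares within a family are not moved by the fall of another family. Of 44 genera tested as percents of their own family, 0 (0.0%) passed the exact permutation test after adjustment and 6 had an unadjusted p under 0.05. Ruminococcaceae_UCG-014 made up 44.0% ± 17.5 of Ruminococcaceae in EAE mice, against 14.0% ± 12.5 in naïve mice (SD, n = 6, exact permutation test, p = 0.00433, adjusted p = 0.159). Acutalibacter, of the same family, made up 7.29% ± 6.04 and 29.0% ± 17.9 (SD, n = 6, exact permutation test, p = 0.00866, adjusted p = 0.159). Dorea made up 4.94% ± 4.41 of Lachnospiraceae in EAE mice, against 11.6% ± 2.91 in naïve mice (SD, n = 6, exact permutation test, p = 0.0108, adjusted p = 0.159). Turicibacter took 99.5% to 100% of Erysipelotrichaceae in EAE mice and 0% to 100% in naïve mice (exact permutation test, n = 6, p = 0.0281, adjusted p = 0.248).

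The whole community of genera differed between the groups. Bray-Curtis distance, which is 0 for identical and 1 for disjoint communities, averaged 0.714 between EAE and naïve mice, 0.393 among EAE mice and 0.504 among naïve mice. The grouping accounted for 48.8% of the squared distances (pseudo-F 9.52, exact permutation test over all splits of 6 and 6 mice, p = 0.00216, the smallest possible). Without Lactobacillaceae, pseudo-F was 7.32 (exact permutation test, p = 0.00433), and without any single mouse it ranged from 7.47 to 12.8.

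Naïve mice 562 and 563 each stood apart from the other 4. They also differed from each other, with Lachnospiraceae at 57.0% and 17.1% and Turicibacter at 3.36% and 35.2%. Naïve mouse 563 had a mean distance of 0.403 to EAE mice and of 0.620 to the other naïve mice, and its nearest sample was EAE mouse 591, the EAE mouse with Akkermansia. Naïve mouse 562 was about as far from EAE mice, 0.650, as from naïve mice, 0.621, and its nearest sample was EAE mouse 593. The other 4 naïve mice were at 0.771 to 0.843 from EAE mice and 0.426 to 0.464 from naïve mice. With both mice left out, an alternative chosen after seeing the data, pseudo-F was 18.4 (exact permutation test, p = 0.00476) and the grouping accounted for 69.7%. EdgeR then called 13 genera in place of 6, among them Ruminococcus (adjusted p = 0.000697), while permutation tests called 0 in place of 3, with 12 at an unadjusted p under 0.05. Whether these mice shared a cage is not given in the sources used here.

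**Figure D3:**
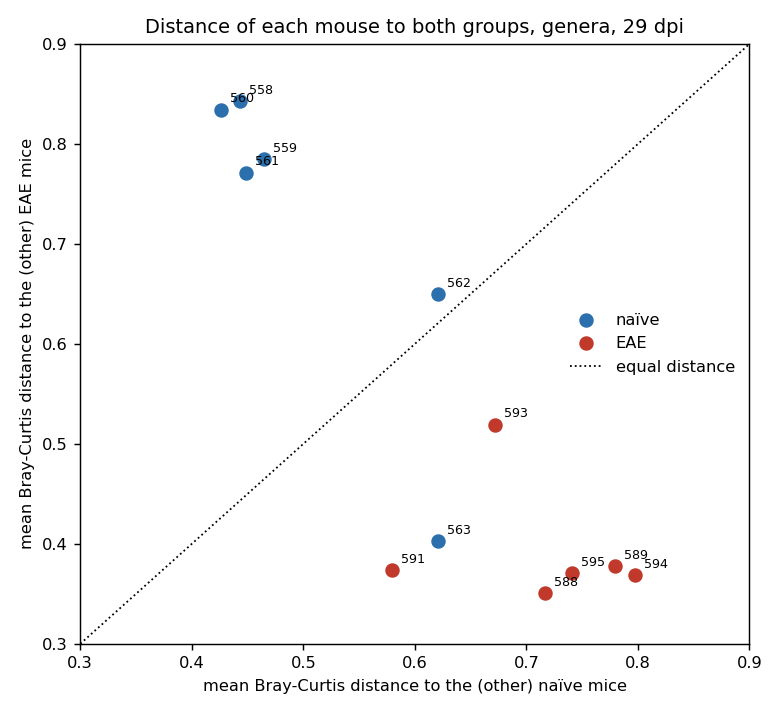
Mean Bray-Curtis distance of genera from each mouse to the naïve mice (horizontal axis) and to the EAE mice (vertical axis) at 29 dpi, its own sample excluded, for 6 naïve (blue) and 6 EAE (red) mice with their numbers. Below the dotted line of equal distance a mouse is nearer to EAE mice: all 6 EAE mice and naïve mouse 563 lie there, and naïve mouse 562 lies just above it.

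Diversity passed the test in 0 of 6 comparisons, with 0 at an unadjusted p under 0.05 (exact permutation tests, all adjusted p = 0.740). The Shannon metric of distinct sequences was 2.69 ± 0.484 in EAE mice, against 2.27 ± 0.633 in naïve mice (SD, n = 6, exact permutation test, p = 0.214), and the number of genera was 31.0 ± 7.85 and 29.2 ± 9.62 (SD, n = 6, exact permutation test, p = 0.740). Naïve mice 562 and 563 held 38 and 44 genera, and the other 4 naïve mice 20 to 27. Without both, the Shannon metric of sequences was higher in EAE mice by 0.801 (exact permutation test, p = 0.0143) and that of genera by 0.620 (p = 0.0190), which is given as a description since the mice were chosen after their values were seen.

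Most ASVs of an abundant genus were copies of 1 sequence that differed within the primers. Lactobacillus sequence 1, the most abundant of its genus once primers were removed, comprised 28 ASVs. In naïve mice 25 to 28 of them had counts per mouse, and in EAE mice 0 to 18, and 7 had no counts in any EAE mouse. The 17 ASVs of the 760 (2.24%) whose groups did not overlap all belonged to this sequence. It had means of 2.60% ± 2.07 in EAE mice, against 31.8% ± 18.5 in naïve mice (SD, n = 6, edgeR adjusted p = 0.0338, exact permutation test, p = 0.00216, adjusted p = 0.253 over 234 sequences). Turicibacter sequence 1 likewise comprised 28 ASVs, with counts for 7 to 28 of them per EAE mouse and 0 to 28 per naïve mouse.

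With edgeR, 26 of 648 ASVs (4.01%) were called, 21 lower (3.24%) and 5 higher (0.772%) in EAE mice. Prevotella held 11, of which 6 were lower, Lactobacillus 7, Akkermansia 4, Barnesiella 3 and Roseburia 1, all of the latter 4 genera lower. These genus counts were not set against the number of ASVs tested in each genus. The 11 named Prevotella and the 3 named Barnesiella were all copies of Prevotella sequence 1, the most abundant of its genus, so that copies of the same sequence were called in both directions, 9 lower and 5 higher. Among the 26, 12 had counts in no more than 2 of the 12 mice. Exact permutation tests, added after seeing the data, called 0 of 760 ASVs (0.0%), with 41 at an unadjusted p under 0.05. EdgeR called 0 ASVs without the filter on rare ASVs or without Lactobacillaceae, with 590 and 285 at an unadjusted p under 0.05, and DESeq2 called 213 of 412 (51.7%), of which 120 were higher (29.1%) and 93 lower (22.6%), against mostly lower calls with edgeR.

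Merging ASVs of the same sequence gave 234 sequences in the 12 samples. Of these, 70 were in mice of both groups, 87 in EAE mice alone and 77 in naïve mice alone, 117 were in a single mouse, and 0 were in all 12. EdgeR called 72 of 202 sequences tested (35.6%), 42 lower (20.8%) and 30 higher (14.9%). By family, 28 were Lachnospiraceae, of which 18 were lower, and 23 were Ruminococcaceae, of which 10 were lower. All 6 called sequences of Prevotellaceae were lower and all 3 of Muribaculaceae higher. These family counts were not set against the number of sequences tested in each family, and 42 of all 72 calls were lower. Of the 72, 51 had counts in no more than 2 mice, permutation tests called 0 of 234 (0.0%) with 14 at an unadjusted p under 0.05, and leaving out any single mouse gave 2 to 32 edgeR calls. The split between directions moved with the processing. DESeq2 called 67 of 172 sequences (39.0%), 35 higher (20.3%) and 32 lower (18.6%), and edgeR with total counts as library sizes called 39 higher and 34 lower. Without EAE mouse 589, edgeR called 13 higher and 4 lower, and without naïve mouse 558, 4 higher and 8 lower.

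The most abundant of the called sequences were named by genus and rank. Lactobacillus sequence 1 and Akkermansia sequence 1 (1.22% ± 2.99 in EAE mice, against 16.9% ± 11.7 in naïve mice, SD, n = 6, edgeR adjusted p = 0.0486) were lower in EAE mice. The genus Akkermansia and its family, with the same means, were not called by edgeR (adjusted p = 0.0992 and 0.0984). Romboutsia sequence 1 was in 5 EAE mice and 0 naïve mice (edgeR adjusted p = 0.0119). Muribaculum sequence 3 was also in 5 EAE mice and 0 naïve mice, at 2.07% ± 1.31 (SD, n = 6, edgeR adjusted p = 0.0338), at least 578-fold higher, while Muribaculum sequences 1 and 2 were found in EAE mice 594 and 595 alone.

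Within Lachnospiraceae, whose total passed neither the edgeR nor the permutation test, single sequences were found in 1 group only. This is not particular to the family: of all 234 sequences, 87 were in EAE mice alone and 77 in naïve mice alone. A sequence named Lachnospiraceae_NK4A136-Clostridium XlVa sequence 8 was in naïve mice 558 to 561, at 1.23% to 2.89%, and in 0 EAE mice (edgeR adjusted p = 0.0338, exact permutation test, p = 0.0606). Lachnospiraceae_NK4A136/Hungatella sequence 4 was in 5 naïve mice, at 0.367% to 1.84%, and in 0 EAE mice (edgeR adjusted p = 0.0338, exact permutation test, p = 0.0152). Anaerostipes sequence 1, of a butyrate producer, was in EAE mice 588 and 589, at 4.31% and 7.14%, and in 0 naïve mice (edgeR adjusted p = 0.0101, exact permutation test, p = 0.455). Outside this family, Ruminiclostridium sequence 1, of Ruminococcaceae, was in EAE mice 591 and 594, at 2.26% and 3.03% (edgeR adjusted p = 0.0338).

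Beside Lactobacillus sequence 1, 1 other of the 234 sequences had no overlap between the groups (2 of 234, 0.855%). Candidatus_Soleaferrea/Massilioclostridium sequence 1 was at 0.206% to 0.710% in EAE and 0% to 0.191% in naïve mice (means 0.434% ± 0.174 and 0.0758% ± 0.0908, SD, n = 6, exact permutation test, p = 0.00216, adjusted p = 0.253).

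**Figure D4:**
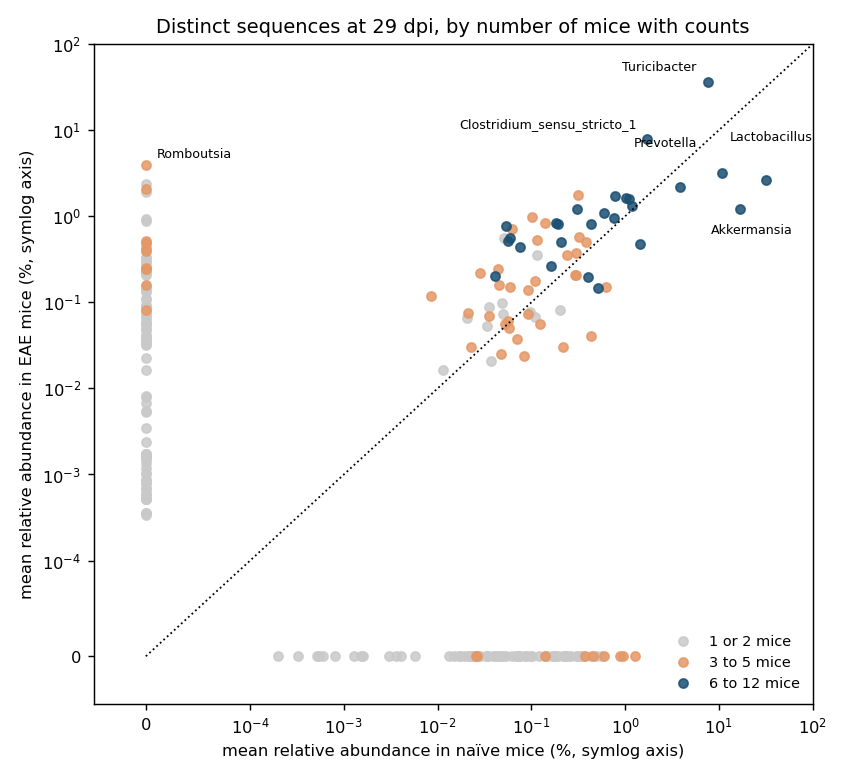
Mean relative abundance (%, symlog axes, linear near 0) of 234 distinct sequences in naïve (horizontal) and EAE (vertical) mice at 29 dpi, each point a sequence coloured by the number of the 12 mice with counts. Grey points, found in 1 or 2 mice, lie mostly along the axes, at 0 in 1 of the groups, and the dotted line marks equal means.

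The groups were also compared at -2 dpi, before immunization, to ask whether they differed from the start. At that day edgeR called 0 of 23 families (0.0%) and 1 of 65 genera (1.54%), Anaerostipes. Lactobacillus was 31.5% ± 8.26 in EAE and 34.1% ± 12.4 in naïve mice, and Turicibacter 17.8% ± 10.1 and 16.5% ± 8.00 (SD, n = 6 each). Akkermansia had 3.00% ± 3.29 and 5.39% ± 4.48 at -2 dpi, so that the naïve mean at 29 dpi, 16.9%, was above both. Turicibacter of naïve mice went the other way, from 16.5% to 7.58%.

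The difference between EAE and naïve mice at 29 dpi was then tested against that at -2 dpi, without pairing, since the labels number EAE mice differently at the 2 days whereas the deposited sample table gives them shared subject numbers. Whether the EAE samples at -2 and 29 dpi came from the same animals is therefore not settled. Of 23 families, 2 passed edgeR (8.70%), Lactobacillaceae (log2 difference -3.89, SE 1.18, adjusted p = 0.0176) and Peptostreptococcaceae (adjusted p = 0.0176). Of 65 genera, 4 passed (6.15%), Romboutsia (adjusted p = 0.0198), Muribaculum (0.0469), Ruminiclostridium (0.00314) and Anaerostipes (0.0469). Lactobacillus as a genus had the same log2 difference as its family, -3.89 (SE 1.33), with an edgeR adjusted p of 0.0555. Peptostreptococcaceae had been in 2 of 6 EAE and 1 of 6 naïve mice at -2 dpi, at means of 0.528% and 0.111%, and the same numbers of mice, 2 and 1, had Muribaculum. With the 4 groups alone in the fit, edgeR called 0 families, with 5 at an unadjusted p under 0.05, and 1 genus. DESeq2 called 5 of 21 families (23.8%) and 15 of 61 genera (24.6%).

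**Figure D5:**
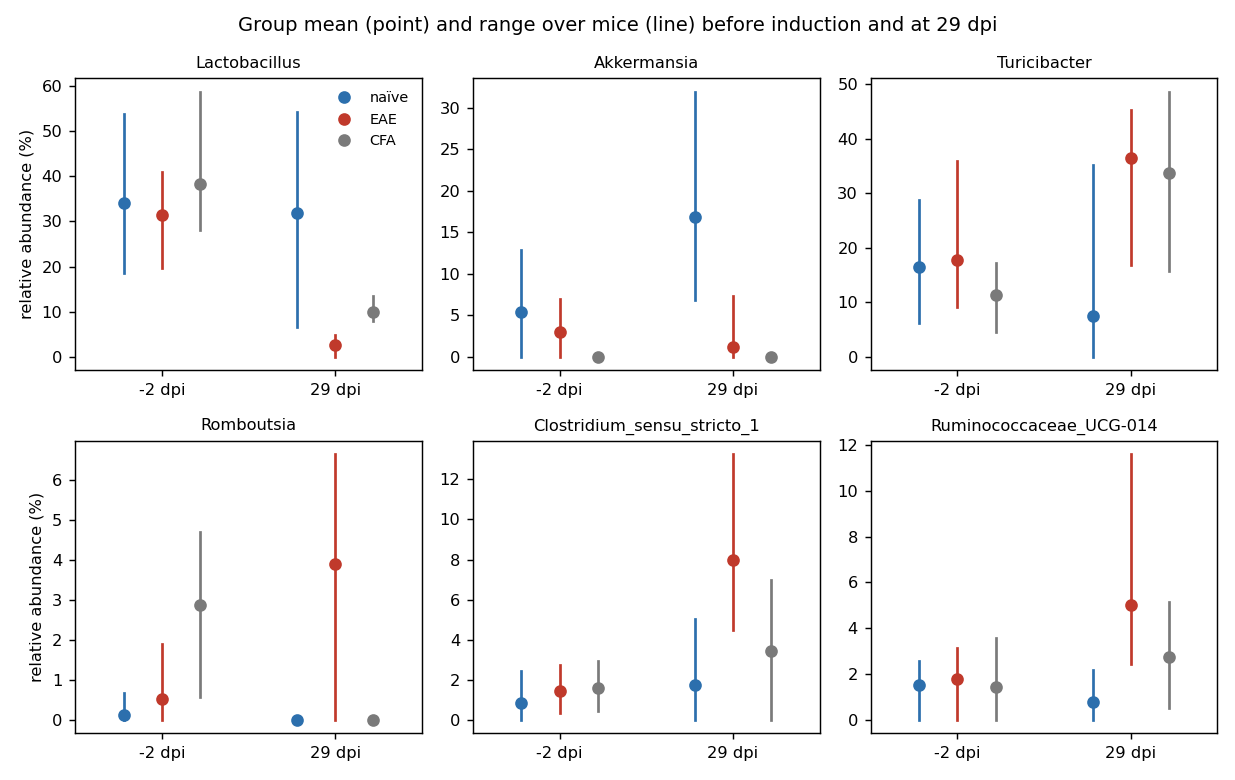
Mean (point) and range over mice (line) of the relative abundance (%) of 6 genera at -2 and 29 dpi in naïve (blue), EAE (red) and CFA (grey) mice, 6 per group but 5 CFA mice at 29 dpi. Naïve and EAE means lie close together at -2 dpi for Lactobacillus, at 34.1% and 31.5%, and apart at 29 dpi, at 31.8% and 2.61%.

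At 29 dpi, CFA mice, given the adjuvant alone by their labels, lay between the other groups for Lactobacillus, at 9.97% ± 2.27 (SD, n = 5). Their Clostridium_sensu_stricto_1 was 3.45% ± 3.25 and their Ruminococcaceae_UCG-014 2.76% ± 2.06 (SD, n = 5), both between the naïve and the EAE mean. These values are given side by side and were not tested here against either group.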

How the data were processed

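Fecal DNA of 6 EAE and 6 naïve mice at 29 dpi was amplified and sequenced for 16S regions V3 and V4. The authors made ASVs with DADA2, with truncated reads, a limit on expected errors and removal of chimeras, and deposited raw read counts per ASV, neither rarefied nor scaled. Names of taxa were curated by hand by the authors from Silva, GTDB, RefSeq and Greengenes. The clinical score and body weight (unit other, in grams) were deposited per mouse and day. Of 89 samples in the count table, 1 CFA sample had a total of 0, and 88 with 9202 to 102437 counts were used. The 12 compared held 62526 to 102437.

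Counts were summed by family, by genus and by the sequence left after primer removal, and tested with edgeR 4.0.16 (limma 3.58.1, R 4.3.3) in 1 fit of 15 groups of treatment and day, with TMMwsp factors from genus counts and taxa with counts in at least 3 samples. Percents, distances and diversity were compared by two-sided exact permutation tests over all 924 splits in Python 3.11.15 with numpy 2.4.6 and pandas 2.3.3, and figures drawn with matplotlib 3.10.9. Shares within a family used mice with at least 100 counts of it, at least 4 per group. Named are families and genera past the threshold in either test, a fixed list of genera, and the called sequences with the highest means. The list of taxa and the members were chosen with earlier results of these data known. Both kinds of test were tried on simulated data of independent values. Cages and repeated sampling of a mouse were not simulated, so these runs do not show how the tests behave under them.

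Alternatives were DESeq2 1.42.0 (poscounts), total counts as library sizes, no filter, only the groups compared, Lactobacillaceae left out, centred log ratios (pseudocount 0.5), medians, rarefying to 62526 counts, and leaving out each mouse. A single genus name per sequence, leaving out naïve mice 562 and 563, and permutation tests of ASVs and sequences were added after seeing the data. No sequences of the bacteria are printed.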

Additional observations from a re-analysis of the deposited data

Results flagged for a closer look

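Among 56 groups of 6 mice examined for a named family or genus, 8 held a mouse far from the others of its group, where chance gives about 1 in 20 if values are normally spread. Percents with many zeros are not, and the groups are not independent. Of the 8, 4 were in naïve mouse 563, with 35.4% Erysipelotrichaceae, 35.2% Turicibacter, 1.00% Coriobacteriaceae and 0.128% Mycoplasma. EAE mouse 593 stood out with 0.444% Tyzzerella-Clostridium XlVb and 0.748% Anaerotignum-Clostridium XlVb, EAE mouse 591 with 7.33% Verrucomicrobiaceae, and EAE mouse 594 with 11.6% Ruminococcaceae_UCG-014. For Verrucomicrobiaceae, Mycoplasma, Tyzzerella-Clostridium XlVb and Anaerotignum-Clostridium XlVb the other 5 mice of the group had no counts, so that any value above 0 would have stood out. Erysipelotrichaceae and Turicibacter of mouse 563 are largely the same counts.

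The difference between EAE and naïve mice changed from -2 to 29 dpi by edgeR's interaction contrast for 2 families and 4 genera. The log2 change was -3.89 for Lactobacillaceae (edgeR adjusted p = 0.0176). The other fitted changes rest on groups without any count and are no bounds of a fold. They were 12.77 for Peptostreptococcaceae (edgeR adjusted p = 0.0176) and for its genus Romboutsia (0.0198), 14.46 for Muribaculum (0.0469), 19.70 for Ruminiclostridium (0.00314) and -10.43 for Anaerostipes (0.0469). For Anaerostipes, 1 of 6 EAE mice and 0 naïve mice had counts at -2 dpi, and 2 of 6 in each group at 29 dpi, all of the naïve counts at 29 dpi being of a sequence also named Coprococcus.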

How the results depend on the processing

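Community distance passed its exact permutation test under each alternative run (pseudo-F 3.08 to 18.4). Lactobacillaceae kept their edgeR call under each alternative that did not leave the family out. The genus Lactobacillus lost its edgeR call with the groups compared alone (edgeR adjusted p = 0.194). The comparison of EAE with naïve mice could not be paired because they share no mouse numbers. The change of the difference since -2 dpi was also fitted without pairing samples of the same mouse. Naïve mice kept their numbers from -2 dpi onward in the labels. For EAE mice, whether the earlier and later samples came from the same animals is not settled. A fit paired by mouse was not run. Counts of edgeR calls that moved by over 1.5 times were, for families, 3 in place of 6 with the groups compared alone and 3 without Lactobacillaceae. For genera they were 17 in place of 6 with DESeq2, 3 without Lactobacillaceae and 13 without naïve mice 562 and 563. For ASVs they were 213 in place of 26 with DESeq2, 0 with no filter, 0 without Lactobacillaceae, 0 with exact permutation tests and 72 with primer variants merged. For sequences they were 2 in place of 72 with no filter, 20 with the groups compared alone, 0 with exact permutation tests and 12 without naïve mice 562 and 563. For the change of the difference since -2 dpi, families gave 5 in place of 2 with DESeq2, 0 with the groups compared alone and 1 without Lactobacillaceae, and genera 15 in place of 4 with DESeq2, 2 with total counts and 1 with the groups compared alone. Permutation calls of families were 7 in place of 4 with centred log ratios and 0 with medians. Those of genera were 0 in place of 3 with centred log ratios, with medians, without Lactobacillaceae, and without naïve mice 562 and 563 (unadjusted p under 0.05 for 15, 8, 9 and 12). Leaving out each mouse gave 4 to 6 families, 4 to 7 genera, 21 to 38 ASVs and 2 to 32 sequences with edgeR, and 0 to 7 families and 0 to 3 genera with permutation tests. The difference in the Shannon metric of distinct sequences was 0.274 to 0.646 and that of genera 0.174 to 0.456 without each mouse. Without naïve mice 562 and 563 these were 0.801 and 0.620. A few genera that passed no test changed sign. Coprococcus/Eubacterium_F had a log2 fold change of 0.49 without naïve mouse 562 (edgeR adjusted p = 0.991), with a range over single mice left out of -1.23 to 0.49, and 10.73 without 562 and 563 (edgeR adjusted p = 0.0355). Its difference was 0.90 with centred log ratios, 0.313 points with medians, -0.382 to 0.0880 points without each mouse and 0.367 without both. Anaerotignum-Clostridium XlVb had a log2 fold change of 0.51 with total counts and -9.56 to 0.00554 without each mouse. Its difference was -3.93 with centred log ratios, -0.105 points with medians and -0.0875 to 0.0621 points without each mouse. The causes were not tested. Taxa below 3 counts per mouse were not detectable at this depth.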
